A study of Caenorhabditis elegans with 10 samples.

Results

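The genes described here encode secreted, membrane-bound and protease modulators of DBL-1 signalling in Caenorhabditis elegans, together with lon-1, an output of that signalling. They were chosen by name: lon-1, lon-2, sma-10, drag-1, crm-1, tsp-12, tsp-14, tsp-21, sup-17 and adt-2. All 10 are among the 20222 genes of the count tables, and all 10 passed the filter on low counts, as did 12499 genes (61.8%). RNA was sequenced from whole dauers, the arrested larval stage that resists stress, of chd-7(gk290);daf-2(e1370) double mutants and of daf-2(e1370) mutants, with 5 libraries of each. They are called the double mutant (chd-7;daf-2 in the plots) and daf-2. Both genotypes carry e1370, a temperature-sensitive allele of the insulin-like receptor gene, and both were held for 10 days from the egg at 25°C, so no animal with a normal daf-2 gene enters the comparison. CHD-7 is a chromatin-remodelling ATPase, and the title of the series is about its regulation of TGF-beta pathways.

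DBL-1 is a BMP-type ligand, made largely by neurons, that binds the receptors SMA-6 and DAF-4 and acts through the SMAD proteins SMA-2, SMA-3 and SMA-4. In larvae and adults the pathway sets body size, chiefly through the epidermis: too little signal gives small worms and too much gives long ones. The modulators act before or at the receptors. The glypican LON-2 restrains the ligand, whereas SMA-10, DRAG-1, CRM-1 and the tetraspanins favour signalling, and lon-1 is repressed by it.

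Reads assigned to genes numbered 7331885 to 14997608 per library. The chd-7 transcript was at 234 to 283 CPM (normalised read counts, on library sizes scaled by TMM) in the double mutant and 207 to 263 CPM in daf-2, which does not check the labels, since these counts cover the gene as a whole and not the deleted stretch. Of 20 pairs of libraries of the same genotype, 3 were much closer than the rest: double mutant replicates 1 and 2, double mutant replicates 3 and 4, and daf-2 replicates 4 and 5. Their chi-square per degree of freedom was 3.83 to 6.58, against 15.99 to 67.45 in the other 17 pairs. Whether close libraries share a culture was not tested, and the labels name no cultures. The p-values therefore reflect the spread among these libraries, some of which may be technical. Libraries also differed in transcripts used as tissue markers. Germline markers, relative to their daf-2 mean on a log2 scale, lay at -3.77 to -0.37 in the double mutant, with replicate 4 highest, and at -0.50 to 0.72 in daf-2. Yolk and uterine markers were highest in daf-2 replicates 2 and 3. Of 14 body wall muscle markers, 11 were higher in the double mutant, 1 (unc-98) was lower and 2 were not called. In RNA from whole animals, fewer cells of a type, less RNA per cell and changed expression of the marker genes themselves cannot be told apart.

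Across the 10 modulators, 3 transcripts rose in the double mutant (lon-1, sma-10 and drag-1), 1 fell (adt-2) and 6 were not called. Calls are adjusted p under 0.05 from edgeR's quasi-likelihood test, adjusted over all tested genes by the Benjamini-Hochberg method. Of all tested genes, 36.2% were called, 17.9% as higher and 18.3% as lower, so a share of 4 in 10 is near the background. The ranges of the genotypes, 5 libraries each, were apart for the same 4 genes, 3 higher and 1 lower, against 22.7% of tested genes (12.7% higher and 10.0% lower). The median log2 fold change of the modulators was 0.175, and its median size without sign 0.357, beside -0.0295 and 0.346 over all tested genes. Without double mutant library 4 and libraries 2 and 3 of daf-2, which stand apart in germline or yolk transcripts, 2 rose and 1 fell, where 28.1% of all tested genes were called. With each close pair summed to 1 library, 1 rose and 1 fell, where the share of all tested genes was 20%.

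**Figure D1:**
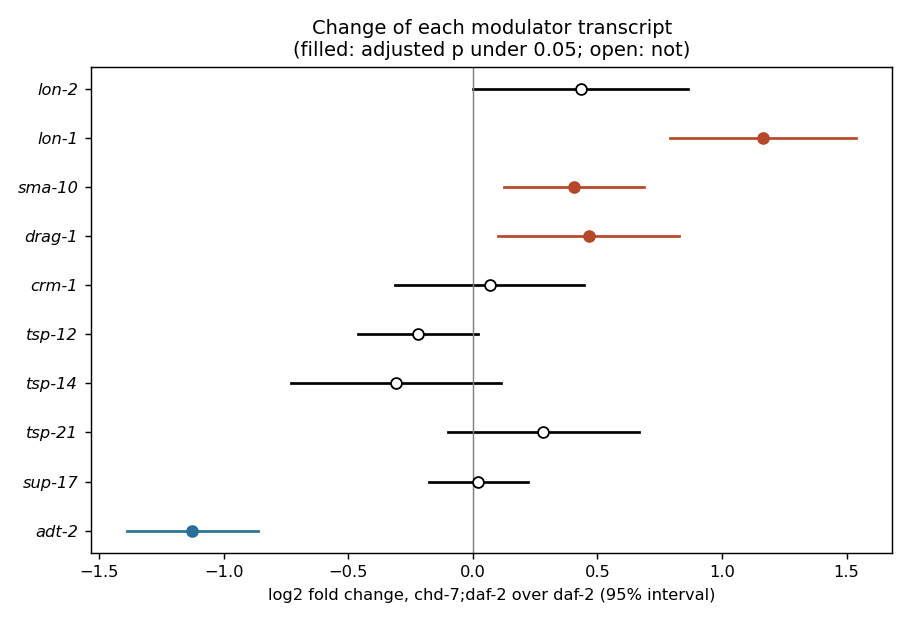
Log2 fold change (double mutant over daf-2) of each modulator transcript with its 95% interval, in order of role. The intervals of lon-1 (0.79 to 1.54) and adt-2 (-1.39 to -0.86) lie farthest from 0, and those of sma-10 and drag-1 start at 0.13 and 0.10.

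The transcript of lon-1, which encodes a secreted protein of the CAP family that limits body size, rose about 2.24-fold. The gene lies on chromosome III from 5474476 to 5478005 on the plus strand (WBcel235), and its exons overlap no other annotated gene. It stood at 11.8, 13.1, 16.7, 15.4 and 11.98 CPM in double mutant replicates 1 to 5, against 4.69, 6.48, 5.13, 7.465 and 6.94 CPM in daf-2 replicates 1 to 5. Every double mutant library was above every daf-2 library, and the gap between 11.8 and 7.465 CPM exceeded the whole range of daf-2. Raw counts behind these values were 134 to 183 reads in the double mutant and 53 to 108 in daf-2. On the log2 scale the rise was 1.16 ± 0.17 (SE; edgeR adjusted p = 0.000477). Leaving out any 1 library kept the call (adjusted p 0.000707 to 0.0018), as did leaving out the 3 libraries that stand apart (1.06, adjusted p = 0.00806) and summing the close pairs (1.18, adjusted p = 0.00798). Among the 13 tested hypodermis markers, 6 were higher in the double mutant and none lower. Their summed level was 1003 to 1346 CPM in the double mutant and 786 to 1033 CPM in daf-2, and the cuticle collagen gene bli-1 was at 0 reads in every library. The part of hypodermal RNA in the lon-1 result was not tested.

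The glypican gene lon-2, whose product binds the ligand and holds signalling down, was split within the double mutant. Levels were 26.15 and 26.4 CPM in double mutant replicates 1 and 2 but 16.7, 15.6 and 13.8 CPM in replicates 3, 4 and 5, against 17.3, 13.45, 16.1, 12.8 and 13.35 CPM in daf-2 replicates 1 to 5. The high values belong to 1 close pair, and the other 3 double mutant libraries lay inside the daf-2 range. For lon-2 the log2 fold change of 0.43 ± 0.20 (95% interval 0.0024 to 0.86) missed the threshold (edgeR adjusted p = 0.105). It was 0.31 without either replicate 1 or replicate 2 of the double mutant (adjusted p = 0.254 for each), and it passed only without double mutant replicate 5 (0.52, adjusted p = 0.0458). The gene spans 4738964 to 4749083 on chromosome X, minus strand.

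**Figure D2:**
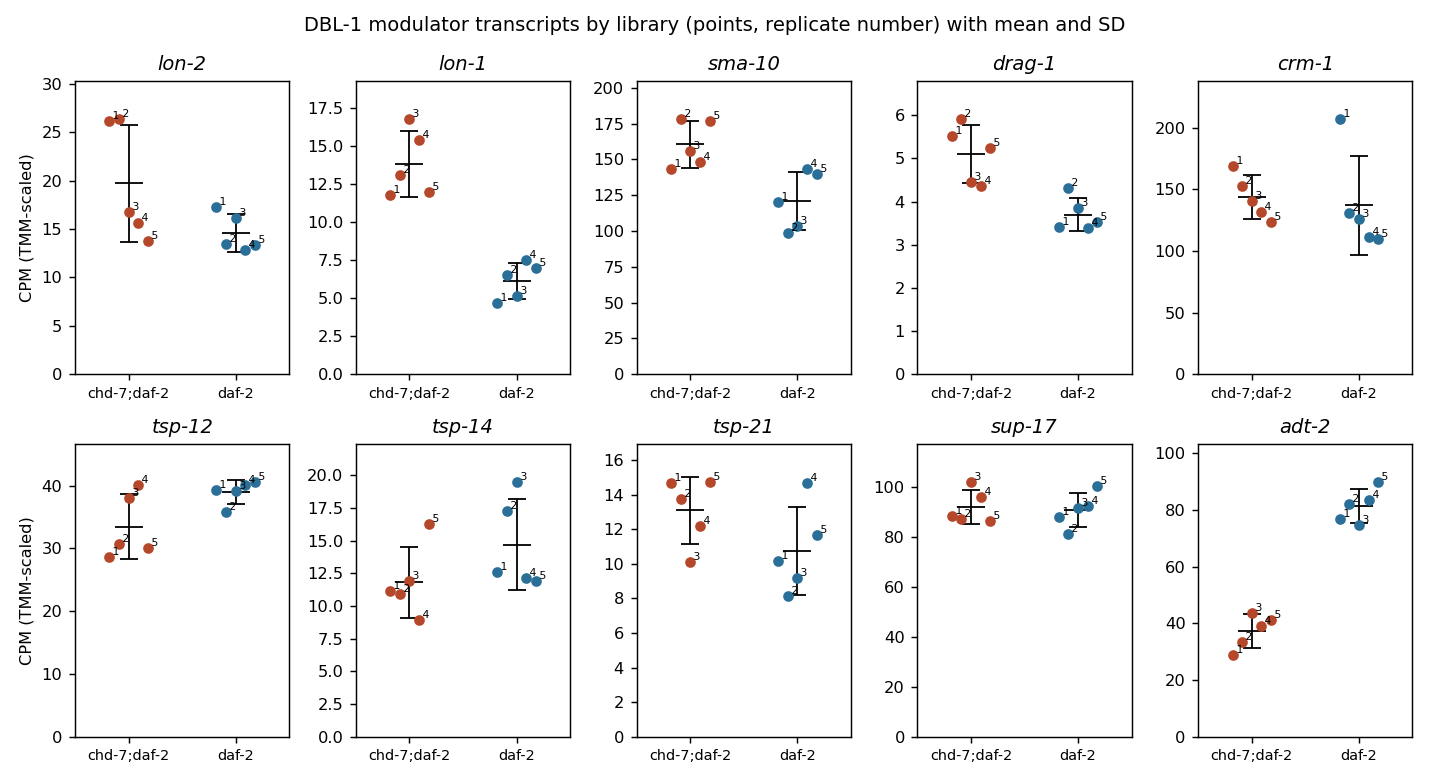
CPM of each modulator in every library (points, marked by replicate number), with the mean and SD of each genotype (n = 5) in black. The lon-1 and adt-2 points of the genotypes lie far apart, those of sma-10 and drag-1 are separated by a narrow gap, and the high lon-2 points are double mutant replicates 1 and 2.

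Of the transcripts for positive modulators at the cell surface, sma-10 and drag-1 rose slightly and crm-1 was not called. SMA-10 is a transmembrane protein with leucine-rich and immunoglobulin-like repeats, related to the vertebrate LRIG proteins, that binds the receptors. Its transcript was at 143.5, 178, 155.5, 148 and 177 CPM in double mutant replicates 1 to 5, against 119.9, 98.6, 103, 143 and 139.7 CPM in daf-2 replicates 1 to 5. The genotypes did not overlap, but the lowest double mutant library and the highest daf-2 library were 143.5 and 143.1 CPM. The log2 fold change was 0.41 ± 0.13 (edgeR adjusted p = 0.0286). The call was lost without double mutant replicate 2 (adjusted p = 0.0685) or 5 (0.0644), or daf-2 replicate 2 (0.0617) or 3 (0.0699). It was also lost with total-count scaling (0.0605), with the close pairs summed (0.0611) and without the 3 libraries that stand apart (0.153), where the log2 fold change was 0.28. The gene lies on chromosome IV, 274420 to 279943.

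DRAG-1 is the worm's member of the repulsive guidance molecule family, proteins that act as BMP co-receptors. It was the lowest of the 10 transcripts, with 27 to 80 reads per library, and counting error alone is 19.2% (1 SD) at 27 reads. Levels were 5.53, 5.91, 4.46, 4.36 and 5.24 CPM in double mutant replicates 1 to 5, against 3.41, 4.32, 3.845, 3.39 and 3.53 CPM in daf-2 replicates 1 to 5. The ranges met without overlapping, at 4.36 and 4.32 CPM. Its log2 fold change of 0.46 ± 0.17 passed narrowly (edgeR adjusted p = 0.0469). When 1 library was left out, the call remained only without double mutant replicate 4 (0.0457) or daf-2 replicate 2 (0.043). It was lost without double mutant replicates 1, 2, 3 or 5 (0.103, 0.109, 0.0556 and 0.083) and without daf-2 replicates 1, 3, 4 or 5 (0.0797, 0.0735, 0.0991 and 0.0899). With the close pairs summed it was 0.181, and with a replicate block 0.0815. The log2 fold change itself stayed at 0.41 to 0.52 over the single libraries left out and was 0.45 with the close pairs summed. Without the 3 libraries that stand apart the call was kept at the threshold (0.61, adjusted p = 0.0497). The gene is on chromosome I, 1680446 to 1685203.

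CRM-1 is a cysteine-rich protein related to vertebrate CRIM1, and it promotes DBL-1 signalling from the cell that makes the ligand. Its transcript was at 169, 153, 141, 132 and 124 CPM in double mutant replicates 1 to 5, against 207, 131, 126, 111.5 and 109.8 CPM in daf-2 replicates 1 to 5. The genotypes overlapped across most of their range, and daf-2 replicate 1 stood above every other library. For crm-1 the log2 fold change was 0.067 ± 0.17 (95% interval -0.31 to 0.45, edgeR adjusted p = 0.785). Without daf-2 replicate 1 it was 0.26 (adjusted p = 0.1). The crm-1 exons (chromosome V, 10322283 to 10332112) share 22 bases with a gene on the other strand, and the strand setting of the counting is not given in the sources used here.

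None of the 3 tetraspanin transcripts of the set was called. Tetraspanins are small membrane-spanning proteins that organise other proteins around them. TSP-12 and TSP-14 act redundantly to promote DBL-1 signalling, and TSP-21 also promotes it. The transcript of tsp-12 was at 28.7, 30.6, 38.0, 40.1 and 29.99 CPM in double mutant replicates 1 to 5, against 39.3, 35.7, 39.2, 40.02 and 40.6 CPM in daf-2 replicates 1 to 5. The double mutant close pair of replicates 3 and 4 lay within the daf-2 range, and the other 3 libraries lay below it. Its log2 fold change was -0.22 ± 0.11 (95% interval -0.46 to 0.020, edgeR adjusted p = 0.136).

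The transcript of tsp-14 was at 11.1, 10.9, 11.9, 8.93 and 16.3 CPM in double mutant replicates 1 to 5, against 12.6, 17.3, 19.5, 12.2 and 11.9 CPM in daf-2 replicates 1 to 5. The higher daf-2 values were in replicates 2 and 3, the libraries with high yolk and uterine transcripts (summed level 899 and 844 CPM, against 178 to 227 CPM in the other daf-2 libraries). Double mutant replicate 5, at 16.3 CPM for tsp-14, had a summed level of 14.2 CPM. The part of yolk and uterine transcripts in the tsp-14 values was not tested. For tsp-14 the log2 fold change was -0.31 ± 0.19 (95% interval -0.73 to 0.11, edgeR adjusted p = 0.232). Without the 3 libraries that stand apart it was 0.033 (adjusted p = 0.903). Per length, tsp-12 exceeded tsp-14 by 2.99 to 7.3 times in double mutant libraries and 3.27 to 5.54 times in daf-2 libraries, ranges that overlap.

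The transcript of tsp-21 was at 14.65, 13.7, 10.1, 12.2 and 14.7 CPM in double mutant replicates 1 to 5, against 10.2, 8.15, 9.15, 14.65 and 11.65 CPM in daf-2 replicates 1 to 5. The genotypes overlapped, with daf-2 replicate 4 level with the highest double mutant libraries. For tsp-21 the log2 fold change was 0.28 ± 0.18 (95% interval -0.10 to 0.67, edgeR adjusted p = 0.227). The tetraspanin genes are on chromosome IV (tsp-12, 10149166 to 10150602) and chromosome X (tsp-14, 4866681 to 4876965, and tsp-21, 9932371 to 9937133). The exons of tsp-14 share 10 bases with ntc-1 on the other strand, and those of tsp-21 share 30 and 23 bases with non-coding RNA genes on the same and the other strand.

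The proteases of the set differed from each other. SUP-17, the worm ADAM10, cleaves membrane proteins including the Notch receptors and promotes DBL-1 signalling together with TSP-12. Its transcript was at 88.4, 87.25, 101.9, 95.97 and 86.5 CPM in double mutant replicates 1 to 5, against 87.9, 81.3, 91.45, 92.5 and 100.1 CPM in daf-2 replicates 1 to 5. The ranges nearly coincided. For sup-17 the log2 fold change was 0.021 ± 0.091 (95% interval -0.18 to 0.22, edgeR adjusted p = 0.87), with a sign that turned under upper-quartile and total-count scaling (-0.011 and -0.013), without double mutant replicate 3 (-0.017) or daf-2 replicate 2 (-0.019), and without the 3 libraries that stand apart (-0.046). The gene lies on chromosome I, 8792964 to 8797295.

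The transcript of adt-2, a secreted ADAMTS metalloprotease needed for normal cuticle collagen organisation and body size, fell to 0.458 of its daf-2 level. It was at 28.8, 33.45, 43.8, 39.1 and 41.2 CPM in double mutant replicates 1 to 5, against 76.6, 82.1, 74.6, 83.6 and 89.8 CPM in daf-2 replicates 1 to 5. The highest double mutant library, at 43.8 CPM, was far below the lowest daf-2 library, at 74.6 CPM. Reads numbered 328 to 629 in the double mutant and 686 to 1209 in daf-2. On the log2 scale the change was -1.13 ± 0.12 (edgeR adjusted p = 6.03e-05). It was called whichever library was left out (-1.19 to -1.04, adjusted p 0.000121 to 0.000318), without the 3 libraries that stand apart (-1.19, adjusted p = 0.00127) and with the close pairs summed (-1.08, adjusted p = 0.00219). Of 10 tested intestine markers, 5 were lower in the double mutant and 2 higher (summed level 646 to 817 CPM in the double mutant and 1047 to 1154 CPM in daf-2). Of 15 germline markers, 12 were lower and none higher (summed level 86.3 to 366 CPM in the double mutant and 328 to 748 CPM in daf-2). All 7 tested yolk and uterine markers were lower (summed level of the list 11.6 to 102 CPM in the double mutant and 178 to 899 CPM in daf-2). No marker of these 3 lists in the tables was at 0 reads. Other lists went the other way from adt-2. Of 13 tested hypodermis markers, 6 were higher and none lower (median log2 fold change 0.784). Of 14 muscle markers, 11 were higher and 1 lower. Of 14 tested neuron markers, 2 were higher and none lower (median 0.236), and unc-17 was at 0 reads. The part of any of these lists in the adt-2 result was not tested. Per length, adt-2 was at 0.244 to 0.356 of sup-17 in double mutant libraries and 0.61 to 0.755 in daf-2 libraries. The gene lies on chromosome X from 7586209 to 7595416, plus strand, and its exons overlap no other annotated gene.

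Levels of different modulators were compared as CPM per kb of annotated exon (1158 to 4530 bases per gene). In the double mutant the order was sma-10 (53.2 ± 5.37, SD, n = 5), crm-1 (43.0 ± 5.38), sup-17 (27.2 ± 1.98), tsp-12 (26.9 ± 4.17), lon-1 (11.7 ± 1.85), tsp-21 (11.3 ± 1.68), lon-2 (10.3 ± 3.16), adt-2 (8.22 ± 1.34), tsp-14 (5.85 ± 1.35) and drag-1 (3.56 ± 0.471). In daf-2 it was crm-1 (41.0 ± 12), sma-10 (40.1 ± 6.74), tsp-12 (31.3 ± 1.52), sup-17 (26.8 ± 2.03), adt-2 (17.9 ± 1.33), tsp-21 (9.285 ± 2.19), lon-2 (7.62 ± 1.04), tsp-14 (7.27 ± 1.72), lon-1 (5.23 ± 1.01) and drag-1 (2.585 ± 0.273). Neighbours whose library ranges overlapped in the double mutant were sma-10 and crm-1, sup-17 and tsp-12, and each successive pair from lon-1 down to tsp-14. Those that overlapped in daf-2 were crm-1 and sma-10, tsp-12 and sup-17, and each successive pair from tsp-21 down to lon-1. Between the genotypes the order of lon-1 and adt-2 was reversed, and their ranges did not overlap in either genotype. The lon-1 transcript ranked 5 in the double mutant and 9 in daf-2, and adt-2 ranked 8 in the double mutant and 5 in daf-2. Ranks among neighbours with overlapping ranges are not settled. Per length, sma-10 was higher than 83.7% of tested genes with a known length in the double mutant and 79.3% in daf-2, and drag-1 was higher than 21.4% in the double mutant and 16.2% in daf-2.

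**Figure D3:**
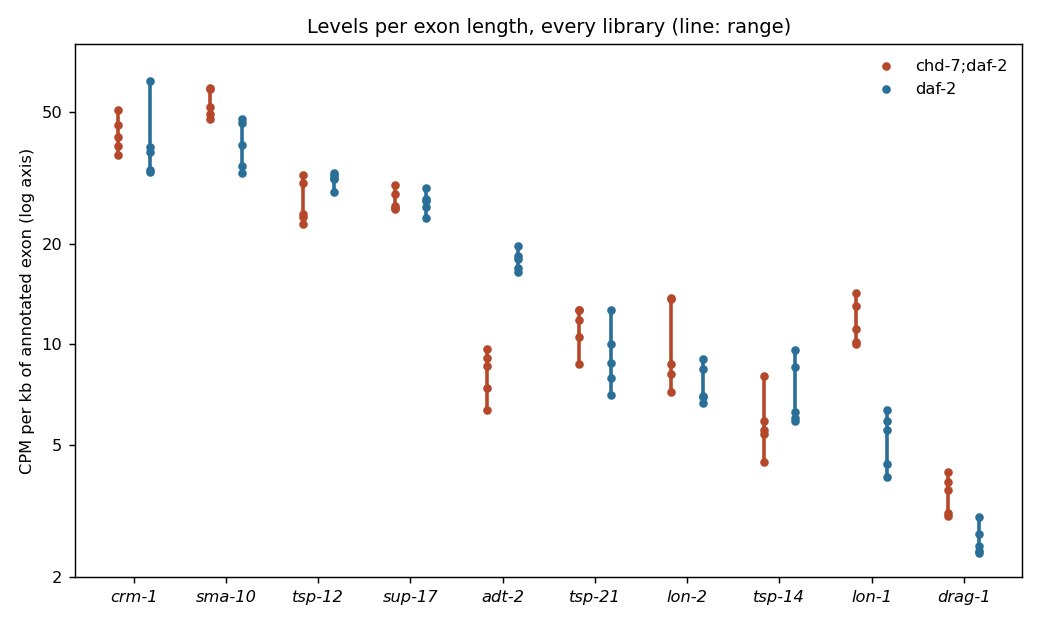
Level of each modulator per kb of annotated exon (log axis) in every library, double mutant left of daf-2 for each gene, with lines for the range. The ranges of lon-1 (10.0 to 14.2 in the double mutant, 3.995 to 6.35 in daf-2) and adt-2 (6.35 to 9.66 in the double mutant, 16.5 to 19.8 in daf-2) lie apart.

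Within a genotype the steadiest transcript was sup-17, with a coefficient of variation of 7.31% in the double mutant and 7.59% in daf-2. The most variable were lon-2 in the double mutant (30.7%) and crm-1 in daf-2 (29.2%). The pooled within-genotype SD of log2 CPM was below that of the median tested gene (0.273) for 6 of the 10. Close libraries sat together. In daf-2, replicates 4 and 5 were the 2 highest of 5 for lon-1, sma-10, tsp-12, tsp-21, sup-17 and adt-2, and the 2 lowest for lon-2, crm-1 and tsp-14, which makes 9 of 10 modulators, beside 48.7% of all tested genes. In the double mutant, replicates 1 and 2 were the 2 highest for lon-2, drag-1 and crm-1 and the 2 lowest for adt-2. Replicates 3 and 4 were the 2 highest for lon-1, tsp-12 and sup-17 and the 2 lowest for drag-1 and tsp-21. Those counts, 4 and 5 of 10, stand beside 42.4% and 29.7% of all tested genes. Whether these shared deviations come from a common culture or preparation was not tested.

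**Figure D4:**
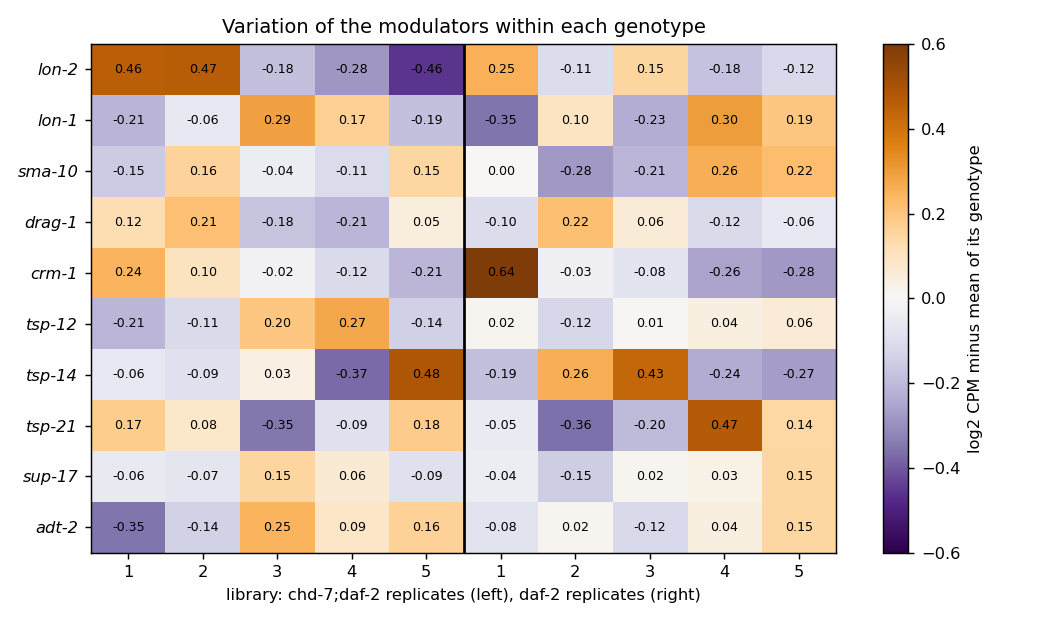
Log2 CPM of each modulator minus its genotype mean, by library (double mutant replicates 1 to 5, then daf-2 replicates 1 to 5). The largest values are crm-1 in daf-2 replicate 1 (0.635) and tsp-14 in double mutant replicate 5 (0.484), and the columns of daf-2 replicates 4 and 5 share their sign in all 10 rows.

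The rest of the DBL-1 pathway was read from a list of 12 genes for ligand, receptors, SMADs and partners, of which 11 were tested and mab-31 was at 0 reads in every library. In the double mutant, 5 rose and 1 fell, beside 17.9% and 18.3% of all tested genes. The transcript of the ligand gene dbl-1 was at 33.4 ± 5.90 CPM in the double mutant and 25.8 ± 1.73 CPM in daf-2 (SD, n = 5 each), a log2 fold change of 0.37 ± 0.12 with overlapping libraries. The type II receptor gene daf-4 was lower (181 ± 12.7 CPM in the double mutant and 274.7 ± 28.5 CPM in daf-2), while the type I receptor gene sma-6 was at 41.6 ± 3.97 CPM in the double mutant and 38.2 ± 2.37 CPM in daf-2 and was not called (edgeR adjusted p = 0.303). Of the SMAD genes, sma-3 and sma-4 had log2 fold changes of 0.28 ± 0.090 and 0.72 ± 0.14, both called as higher, and sma-2 was not called (0.098 ± 0.10). The transcription cofactor genes sma-9 and bro-1 rose by 0.75 ± 0.18 and 1.34 ± 0.20. Libraries of the genotypes overlapped for sma-9 (264 ± 65 CPM in the double mutant, 157.4 ± 30.8 CPM in daf-2) but not for bro-1. The DCC-type receptor gene unc-40, whose product binds DRAG-1, was at 93.9 ± 8.53 CPM in the double mutant and 78.9 ± 12.3 CPM in daf-2 and was not called (0.25 ± 0.12, adjusted p = 0.128). Without the 3 libraries that stand apart, 3 rose and 1 fell, where 28.1% of all tested genes were called. With the close pairs summed, 3 rose and 1 fell, where the share of all tested genes was 20%.

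Relatives of the modulators by protein family were counted next. Each count is to be read beside the 36.2% of all tested genes that were called, 17.9% as higher and 18.3% as lower. The share called in either direction was 28.1% without the 3 libraries that stand apart and 20% with the close pairs summed. Of 21 tetraspanin genes, 14 were tested; 7 rose in the double mutant and none fell, the median log2 fold change was 0.484, and the 3 DBL-1 modulators were among the 7 not called. The lowest p-values were those of tsp-9 (36.7 ± 4.64 CPM in the double mutant, 17.2 ± 2.95 CPM in daf-2), tsp-15 (19.5 ± 3.46 CPM in the double mutant, 7.34 ± 1.51 CPM in daf-2), an epidermal tetraspanin needed for cuticle cross-linking, and tsp-2 (6.47 ± 1.23 CPM in the double mutant, 2.30 ± 1.05 CPM in daf-2). The same 7-to-none count was seen without the 3 libraries that stand apart, of 15 tested, and 5 rose with the close pairs summed. In the same double mutant libraries 6 of 13 hypodermis markers were higher and none lower, and 11 of 14 muscle markers were higher and 1 lower. Summed levels of these markers are given with lon-1 and unc-52, and their part in the tetraspanin count was not tested. Of 9 tested ADAM and ADAMTS protease genes, 2 rose and 2 fell. The ADAMTS gene adt-1 rose by 0.75 ± 0.20 and gon-1, which gonad shaping needs, by 0.65 ± 0.23 (adjusted p = 0.0462), whereas tag-275 fell with adt-2 (8.46 ± 0.678 CPM in the double mutant, 15.9 ± 0.814 CPM in daf-2). Without the 3 libraries that stand apart 1 rose and 3 fell, and with the close pairs summed none rose and 2 fell.

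Of 19 tested genes for heparan sulfate proteoglycans and the enzymes that build their chains, lon-2 included, 3 rose and 3 fell. That share is near the 36.2% of all tested genes that were called. The syndecan gene sdn-1 and the perlecan gene unc-52 rose, with log2 fold changes of 0.89 ± 0.12 and 0.84 ± 0.20. So did sqv-5 (0.52 ± 0.18), a chondroitin synthase gene that was counted in this list. The falls were in sqv-1 (-0.66 ± 0.15), sqv-2 (-0.56 ± 0.16) and sqv-7 (-0.28 ± 0.10, adjusted p = 0.0469). The second worm glypican gene, gpn-1, had 36 reads in all 10 libraries and was not tested. Perlecan is laid down around body wall muscle, and muscle markers had a summed level of 5281 to 7283 CPM in the double mutant and 1626 to 3070 CPM in daf-2, with none at 0 reads; their part in the unc-52 result was not tested. Without the 3 libraries that stand apart, 2 rose and 2 fell, and with the close pairs summed 2 rose and 1 fell.

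In the CAP family of lon-1, 13 of 27 genes in the tables were tested, of which 4 rose and 3 fell, beside 17.9% and 18.3% of all tested genes. The rises with the lowest p were in scl-25, lon-1 and scl-2, and scl-2 stood at 14.4 ± 2.18 CPM in the double mutant and 4.23 ± 1.62 CPM in daf-2. For scl-25 there were 120 reads in the double mutant and 10 in daf-2 over 5 libraries each, so the size of its change is uncertain. The falls were in scl-20 (4.43 ± 2.57 CPM in the double mutant, 14.7 ± 4.19 CPM in daf-2), scl-11 (371 ± 245 CPM in the double mutant, 1239 ± 466 CPM in daf-2) and vap-2 (5.57 ± 3.03 CPM in the double mutant, 15.6 ± 9.02 CPM in daf-2). Without the 3 libraries that stand apart 4 rose and 2 fell, and with the close pairs summed 4 rose and 1 fell. Members of this family have related sequences. Reads without a unique alignment were left out of the counts, so levels of similar members may be understated.

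The transcripts whose pattern was most like that of lon-1 were srw-86, T12G3.2 and Y54G2A.11, with Pearson correlations of log2 CPM over the 10 libraries of 0.989, 0.984 and 0.982 among 9794 genes that averaged 5 CPM or more. Those most like adt-2 were kat-1, rsp-2 and ZK1320.9, at 0.988 for each. These correlations span both genotypes and so hold the difference between them, and differences of depth or preparation among the libraries may enter them too. They are a description of likeness in these libraries only.

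**Figure D5:**
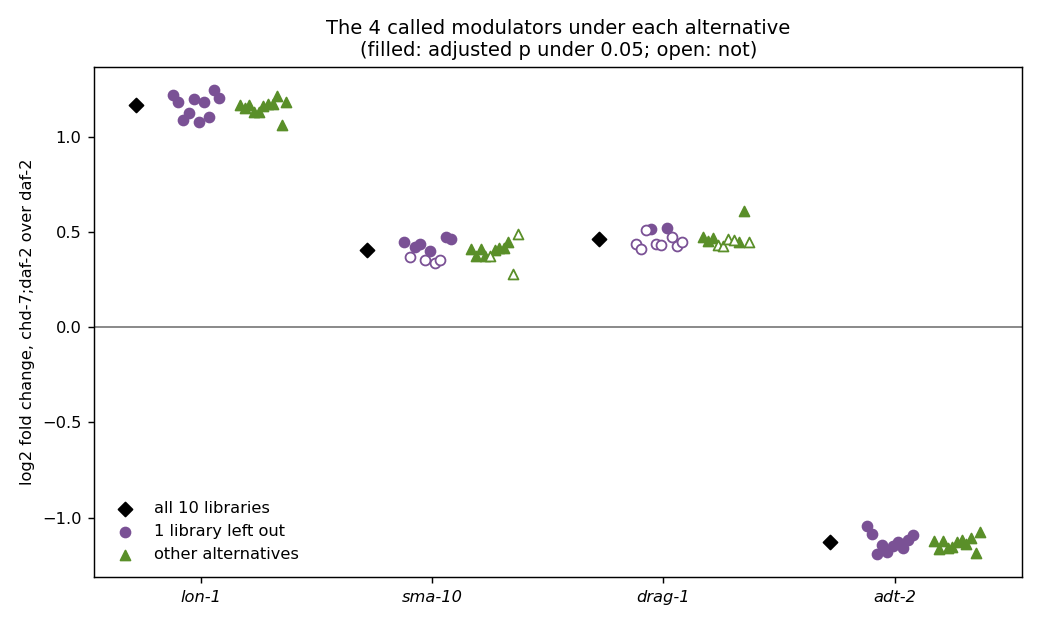
Log2 fold change (double mutant over daf-2) of the 4 called modulators with all 10 libraries, with 1 library left out at a time and under the other alternatives, filled where adjusted p is under 0.05. All points of lon-1 (1.06 to 1.25) and adt-2 (-1.19 to -1.04) are filled, whereas 7 of 21 alternatives for sma-10 and 13 of 20 for drag-1 are open.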

How the data were processed

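Dauers of 2 genotypes were sequenced, with 5 libraries each. Per the labels' protocols, total RNA came from a TRIzol extraction and the library kit was NEBNext Ultra II RNA. The authors deposited whole-number read counts per gene, not normalized. STAR 2.5.4a and HTSeq 0.9.1, besides FastQC 0.11.5 and DESeq2 1.20.0, are named per the submitters' processing notes. The counting's build, annotation and strand use were not given in the sources used here. HTSeq tallies that name no gene (11.3% to 18.9% of reads per library) were left out.

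Counts were analysed with edgeR 4.0.16 in R 4.3.3: filterByExpr (minimum count 10, minimum total 15), TMM scaling, robust quasi-likelihood F test without covariates, Benjamini-Hochberg adjustment, threshold 0.05. SE is the log2 fold change divided by the square root of F. The log2 CPM values used a prior count of 2. Alternatives were DESeq2 1.42.0, limma 3.58.1, sva 3.50.0, other scalings and filters, and libraries left out or summed; those for the family lists were added after seeing the data. On simulated counts (12380 genes tested), in which only a small share of genes was changed, the test recovered 22% of genes changed by 1.5-fold and 72% at 2-fold. In the real counts 36.2% of tested genes were called. The p-value that passes adjustment therefore differs, and these recoveries need not hold for the real counts. A count of 0 would allow 0.196 to 0.393 CPM (3 counts, counting error only). Positions and exon lengths came from Ensembl 115 (WBcel235), matched by name, and may differ from the annotation used for counting. All 10 modulators were named, with the called genes of the pathway list and up to 3 called genes per direction of each family list. The members and lists were chosen with earlier results of these data known.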

Additional observations from a re-analysis of the deposited data

Results flagged for a closer look

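In 2 of 20 sets of 5 libraries (10 modulators in 2 genotypes), 1 library lay far from the others, by a gap above 0.71 of the set's range. Chance gives about 1 such set in 20. The crm-1 transcript was at 207 CPM in daf-2 replicate 1, above the other 4 daf-2 libraries by 0.785 of the range. The tsp-12 transcript was at 35.7 CPM in daf-2 replicate 2, below the others by 0.711 of the range. Neither transcript was called, with or without that library.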

How the results depend on the processing

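The calls of lon-1 and adt-2 were kept in all 21 alternatives run for each. The call of sma-10 was kept in 14 of 21 and that of drag-1 in 7 of 20, since drag-1 was not tested at 5 CPM in at least 5 libraries. The count of changed modulators was 2 of 10 (1 higher, 1 lower) with total-count scaling and with close libraries summed. Of all tested genes, 33.6% were called with total-count scaling and 20% with close libraries summed. Leaving out 1 library gave 2 to 4 changed modulators, 1 to 3 higher and 1 lower, where 26.7% to 36.6% of all tested genes were called. Over all genes, 4523 changed (2240 higher, 2283 lower). Leaving out 1 library gave 3358 to 4617 (1782 to 2375 higher, 1576 to 2242 lower), and summing close libraries, which leaves fewer samples, gave 2631 (1330 higher, 1301 lower). Signs turned only for values not called. These were crm-1 with close libraries summed (-0.036) and without daf-2 replicate 4 or 5 (-0.0029 and -0.0051, with a range of -0.0051 to 0.26 over the single libraries left out), and tsp-14 without the 3 libraries that stand apart (0.033). The sup-17 sign turned with upper-quartile scaling (-0.011), total counts (-0.013), without those 3 libraries (-0.046) and without some single libraries (-0.019 to 0.056). The cause was not tested. The labels do not say whether same-numbered libraries are paired, and the counts did not settle it. Deviations of same-numbered libraries correlated at -0.192 to 0.325, and 2 of 5 double mutant libraries correlated best with their own number. With a replicate block 3 of 10 modulators changed (2 higher, 1 lower). Over all genes 4764 changed, 38.1% of those tested (2495 higher, 2269 lower). The drag-1 call was lost with that block (edgeR adjusted p = 0.0815). Of the modulators, drag-1 had the fewest reads, at 27 to 80 per library. The part of depth in its lost calls was not tested.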
